A study of Solanum virginianum with 2 samples.

Results

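Near-perfect matches between small RNAs and transcripts of eggplant pistils were taken as the predicted pairs with an alignment score of 1 or less in the authors' deposited degradome table. Small RNAs of low complexity, in which distinct 3 nt words made up at most 0.5 of all 3 nt words, were left out. This gave 417 pairs of 18764 in the table, made by 102 small RNAs and 342 transcripts. The comparison set was the 11973 pairs with scores above 1 that passed the same complexity limit, made by 491 small RNAs and 8714 transcripts. The alignment score ran from 0 to 4 in steps of 0.5, and a lower score stands for fewer mismatches between the small RNA and the transcript.

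The material came from the eggplant line 'B3-3', whose plants bear short-styled (S-morph) and long-styled (L-morph) flowers together. The series title gives Solanum melongena and the organism field gives Solanum virginianum. A small RNA library and a degradome library were sequenced, 1 of each, and each pooled pistils of both morphs from buds at days 1 to 3 and 3 to 6 after budding. For the degradome the extraction protocol instead gives 6 pooled samples from phases 1, 2 and 5, phase 5 being days 13 to 15. With 2 unreplicated libraries there is no replicate error and no comparison of conditions, and each interval given is an exact 95% Clopper-Pearson interval, covering counting error alone.

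Plant microRNAs (miRNAs) guide an Argonaute protein to transcripts with which they pair almost fully, and the protein cuts the transcript opposite the middle of the miRNA, between the bases that face positions 10 and 11. The downstream fragment carries an uncapped 5′ end, which degradome sequencing captures and places on the transcript. Most conserved plant miRNAs of about 21 nt act on transcription factors of development, whereas plant small RNAs of 24 nt mostly direct DNA methylation at transposons and repeats.

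The small RNAs at positions with 2 or more degradome reads were sequences of conserved families. The sequences of all textbook target pairs, defined below, are shown here 5′ to 3′ as deposited, in the RNA alphabet, with the seed (bases 2 to 8) in capitals. In the names, L and R mark bases added to or removed from the left (5′) and right (3′) end, and ss marks substitutions against the known miRNA. The 3 miR160 sequences shared 1 seed and differed at the 3′ end.
sly-miR160a: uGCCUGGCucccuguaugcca
nta-miR160a_1ss21AG: uGCCUGGCucccuguaugccg
htu-miR160a_R+1: uGCCUGGCucccuguaugccu
The 3 miR171 sequences had 2 seeds, GAUUGAG and UGAGCCG.
sly-miR171a: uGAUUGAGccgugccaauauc
sly-miR171d_R+1: uUGAGCCGcgccaauaucacu
tcc-MIR171a-p3_1ss21GT: uUGAGCCGcgccaauaucuuu
The 6 miR172 sequences below came as 20 nt forms that lack the first base, as 21 nt forms and as a 22 nt form, so their seeds are offset by 1 base.
tcc-miR172d_L-1: gAAUCCUGaugaugcugcau
mtr-miR172a_2ss1AC21GT: cGAAUCCUgaugaugcugcau
nta-miR172a_L-1: gAAUCUUGaugaugcugcag
nta-miR172a_1ss1AG: gGAAUCUUgaugaugcugcag
nta-miR172c_1ss21TG: aGAAUCUUgaugaugcugcag
nta-miR172a_R+1-2: aGAAUCUUgaugaugcugcagc
The 21 nt miR156 form and nta-miR394_L+1 likewise carry 1 more base at the 5′ end than the 20 nt forms beside them.
aly-miR156a-5p_1ss14TA: uGACAGAAgagagagagcac
nta-miR156a: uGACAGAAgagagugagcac
vvi-miR156h_L+1_1ss21TC: uUGACAGAagagagagagcac
nta-miR394: uUGGCAUUcuguccaccucc
aly-miR394a-5p_R+1: uUGGCAUUcuguccaccuccu
nta-miR394_L+1: uUUGGCAUucuguccaccucc
Single sequences stood for miR164 and miR166.
cme-miR164a: uGGAGAAGcagggcacgugcu
vvi-miR166a_1ss19CT: uCGGACCAggcuucauucu
Over all 102 small RNAs there were 90 distinct seeds, and 10 seeds were shared by 22 small RNAs.

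Near-perfect pairs were detected in the degradome more often than other pairs, and the reads sat on the classical targets of conserved miRNAs: SCL6, ARF18, AP2, RAP2-7, ATHB-15 and FBX6. At least 1 raw degradome read at the expected position was listed for 47 of 417 near-perfect pairs, a share of 11.3% (interval 8.4% to 14.7%). Among pairs with scores above 1 the share was 3.84% (460 of 11973, interval 3.5% to 4.2%). With 2 or more raw reads required, 25 near-perfect pairs remained, a share of 6% (3.92% to 8.72%) beside 1.96% of pairs above 1. The authors' category 0 or 1, which in degradome work usually stands for the position with the highest read number on its transcript, held 16 near-perfect pairs, a share of 3.84% (2.21% to 6.16%) beside 0.894% of pairs above 1. The intervals of the 2 sets did not overlap in any of these 3 readings, though pairs of 1 set share transcripts and small RNAs and are not independent. Transcript levels were not measured, so a pair without reads is not shown to be uncut.

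The detected near-perfect pairs fell into 16 of category 0, 9 of category 2 and 22 of category 4, in which a position has a single raw read. Categories 1 and 3 held 0 of them. The median was 2 raw reads per detected pair in both sets, and the highest value was 86 among near-perfect pairs and 130 above 1. A near-perfect pair that was detected thus often rested on 1 read.

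To separate classical targets from the rest, textbook target pairs were defined as pairs whose transcript symbol or annotation holds the known target word of the miRNA family, such as SPL for miR156. Of the 417 near-perfect pairs 45 were textbook target pairs, a share of 10.8% (7.98% to 14.2%), against 2.13% (1.88% to 2.4%) of the pairs above 1. Of these 45 pairs 30 were detected, a share of 66.7% (51% to 80%). Textbook target pairs above 1 were detected in 68.2% (174 of 255, 62.1% to 73.9%), and the intervals overlap widely. Their median raw reads, counted over pairs, were 16 in near-perfect and 6 in other detected pairs. Pairs that name the same position repeat its reads in these medians, and the difference was not tested. Outside the textbook target pairs, 17 of 372 near-perfect pairs were detected, a share of 4.57% (2.68% to 7.22%), beside 2.44% of such pairs above 1. The 17 pairs each had 1 raw read and category 4, whereas all 25 near-perfect pairs with 2 or more reads were textbook target pairs. Above 1, 123 of the 235 pairs with 2 or more reads were textbook target pairs.

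**Figure D1:**
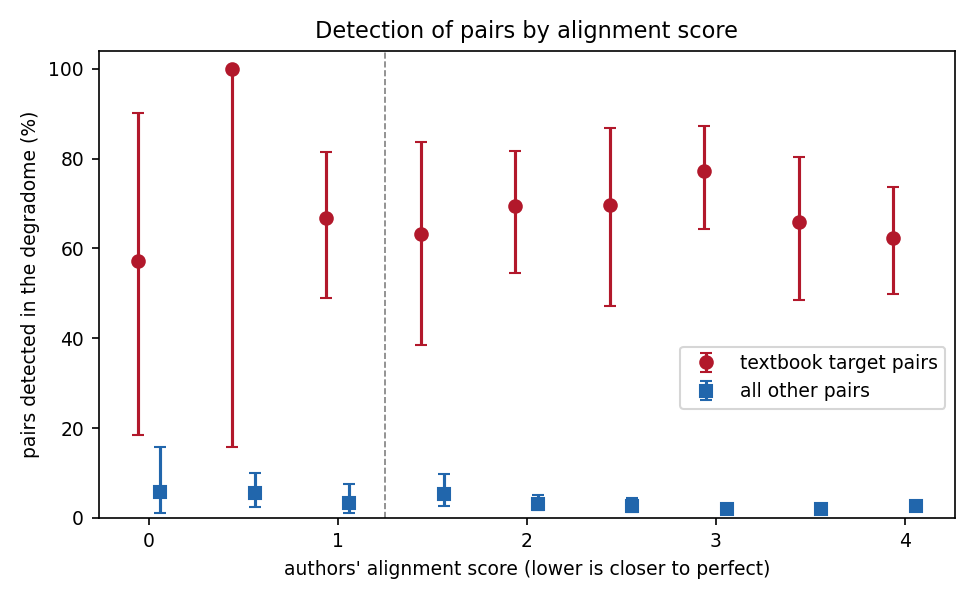
Share of pairs with at least 1 degradome read (y axis, percent) at each alignment score (x axis), for textbook target pairs (circles) and all other pairs (squares), with exact 95% intervals as bars and the limit for near-perfect pairs as a dashed line. Textbook target pairs were detected in 4 of 7 at score 0, 24 of 36 at score 1 and 43 of 69 at score 4, while other pairs stayed low at every score.

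Split by score, textbook target pairs were detected in 4 of 7 at score 0, 2 of 2 at 0.5, 24 of 36 at 1, 12 of 19 at 1.5, 34 of 49 at 2, 44 of 57 at 3 and 43 of 69 at 4. The share neither rose nor fell steadily with the score. The 29 detected pairs of 189 at score 1, just inside the limit, made 15.3%, and the 22 of 205 at score 1.5, just outside it, made 10.7%. Of the latter, 12 were textbook target pairs, led by SCL6 with 86 raw reads, ARF18 with 72 and 23, AP2 with 18 and the class III homeobox transcript ATHB-8 with 14. The SCL6, ARF18 and AP2 positions just outside the limit were positions that near-perfect pairs also named.

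The 47 detected pairs named 37 distinct positions, of which 20 were textbook positions on 16 of the 19 textbook transcripts. The raw values of these 20 positions summed to 373, of 390 over all 37. Reads that match more than 1 place may enter these sums more than once. The GRAS transcription factor SCL6, a meristem regulator of the HAIRY MERISTEM group in Arabidopsis, had the highest value. On its transcript Sme2.5_05903.1_g00003.1, sly-miR171a named nt 1085, with 86 raw reads in category 0 and an authors' deposited p of 0.00482. The other 2 miR171 forms named nt 1082, 3 nt upstream, with 25 raw reads in category 2. Both positions of SCL6 were therefore read, and the higher was named by the near-perfect form with 525 small RNA reads. Other miR171 pairs, with scores above 1, also named both positions, so a read cannot be assigned to a form. A second GRAS transcript, SCL15 (Sme2.5_00099.1_g00002.1), had 1 read at nt 629.

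ARF18, a member of the auxin response factor group that represses auxin-responsive genes in Arabidopsis, was detected in all 9 of its near-perfect pairs with miR160. At nt 1379, transcript Sme2.5_03336.1_g00003.1 had 72 raw reads, and Sme2.5_00209.1_g00014.1 had 23 at nt 1355. Transcripts Sme2.5_04025.1_g00003.1 (nt 1298) and Sme2.5_04752.1_g00004.1 (nt 1313) had 26 raw reads each, normalized to 13 each. A normalized value under the raw value was read as reads that match more than 1 place, which the file header does not spell out. All 4 ARF18 positions were in category 0, and sly-miR160a, with 1886 reads the most abundant small RNA among textbook target pairs, named every one of them.

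**Figure D2:**
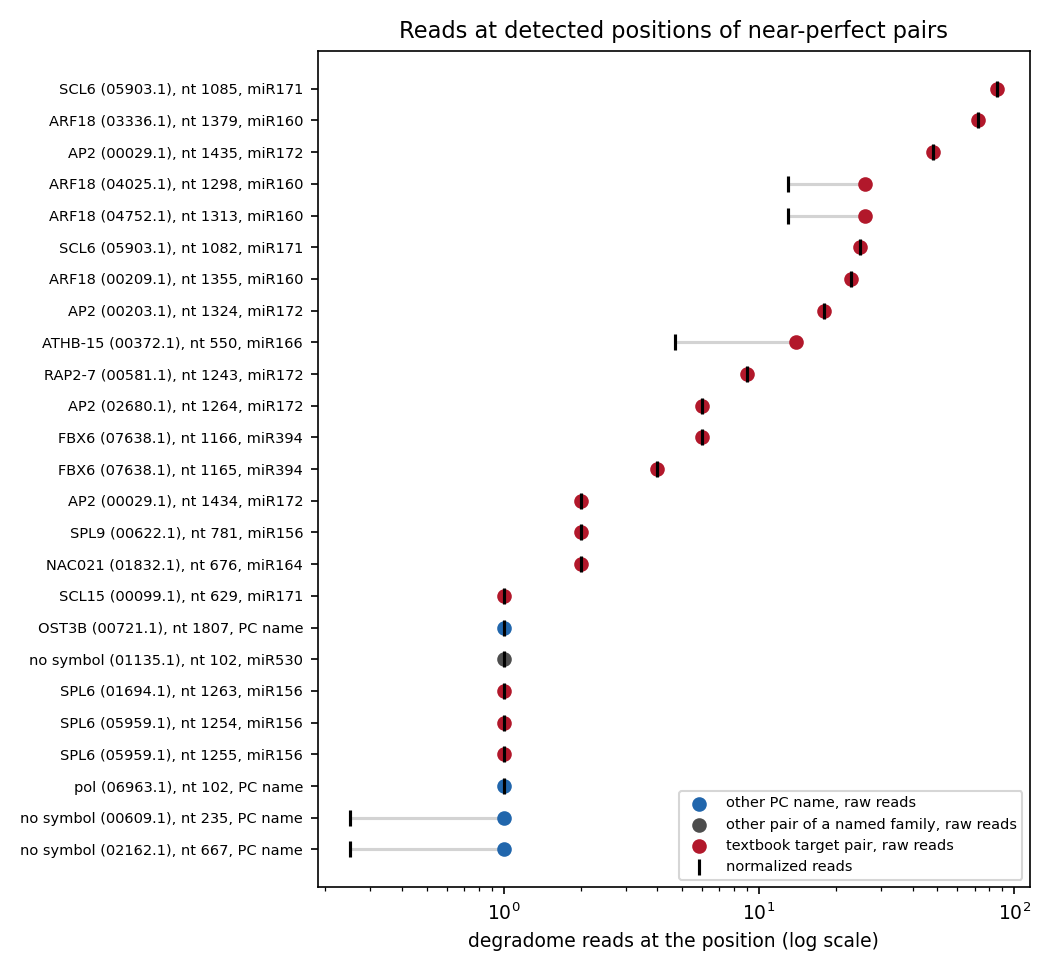
Degradome reads (x axis, log scale) at the 25 positions of near-perfect pairs with the most reads (y axis: symbol, shortened transcript number, position and family), with raw reads as dots coloured by class and normalized reads as ticks. Positions from SCL6 with 86 reads down to NAC021 with 2 are all textbook target pairs, and positions of other pairs hold 1 raw read each.

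The AP2-like floral identity transcripts, which miR172 restrains in flowers of other plants, made 17 textbook pairs on 6 transcripts. AP2 transcript Sme2.5_00029.1_g00014.1 had 48 raw reads at nt 1435 and 2 at nt 1434. Transcript Sme2.5_00203.1_g00006.1 had 18 at nt 1324, and Sme2.5_02680.1_g00003.1 had 6 at nt 1264. RAP2-7 (Sme2.5_00581.1_g00007.1), an AP2-like repressor of flowering in Arabidopsis, had 9 at nt 1243. The highest position of each of these 4 transcripts was in category 0. Near-perfect pairs on 2 more AP2 transcripts, Sme2.5_10915.1_g00001.1 and Sme2.5_00019.1_g00019.1, had 0 detected. On the latter, miR172 pairs with scores of 2 to 4 named nt 1291, which had 1 read in category 4.

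The remaining textbook transcripts had few reads. ATHB-15 (Sme2.5_00372.1_g00009.1), a class III homeodomain-leucine zipper factor of vascular and meristem patterning, had 14 raw reads at nt 550 from miR166, normalized to 4.67. FBX6 (Sme2.5_07638.1_g00002.1), named for an F-box protein, had 6 raw reads at nt 1166 and 4 at nt 1165 from miR394. NAC021 (Sme2.5_01832.1_g00005.1), a NAC factor, had 2 at nt 676 from miR164. The SPL transcripts, targets of miR156 that promote the change to the adult and flowering phase in Arabidopsis, were near the limit of detection. SPL9 (Sme2.5_00622.1_g00022.1) had 2 reads at nt 781, and the SPL6 transcripts Sme2.5_05959.1_g00002.1 and Sme2.5_01694.1_g00002.1 had 1 read at each detected position. SPL12 (Sme2.5_00547.1_g00002.1) had none in 3 pairs with scores down to 0.

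Forms of miR172, miR156 and miR394 that differ by 1 base at the 5′ end named neighbouring positions. Between such positions the reads lay mostly at the one named by the forms with the extra base. For every detected near-perfect pair the listed position was 9 nt before the 3′ end of the alignment, and this distance was used to place undetected pairs too. The 20 nt forms of miR172 named the position 1 nt upstream of the 21 nt forms, and 2 of their 11 near-perfect textbook pairs were detected, with at most 2 raw reads. The 21 and 22 nt forms were detected in 5 of 6, with up to 48. At AP2 Sme2.5_00029.1_g00014.1 the upstream position had 2 raw reads and its neighbour 48. At AP2 Sme2.5_00203.1_g00006.1, AP2 Sme2.5_02680.1_g00003.1 and RAP2-7 the upstream position had none listed, beside 18, 6 and 9. Over all textbook target pairs of 1 or less, 6 of 19 pairs with 20 nt forms were detected and 22 of 24 with 21 nt forms. Of the 15 undetected pairs 13 belonged to 20 nt forms. Family and length overlap here: miR160 (9 pairs), miR171 (4) and miR164 (1) had 21 nt forms only, and all were detected. For miR156, 3 of 7 pairs of 20 nt and 2 of 3 of 21 nt were detected. It was 2 of 11 and 4 of 5 for miR172, and 1 of 1 and 2 of 2 for miR394. The SPL6 transcripts differed from AP2 and RAP2-7. On Sme2.5_05959.1_g00002.1, nt 1254 and 1255 had 1 read each. On Sme2.5_01694.1_g00002.1, the position of the 20 nt forms had 1 read, and none was listed 1 nt further. On the ARF18 transcripts, 22 nt miR160 pairs above 1 named the position 1 nt downstream of the main one. It had 1 read beside 72 on Sme2.5_03336.1_g00003.1, and none was listed on the other ARF18 transcripts. The 20 nt miR172 forms were also rare in the small RNA library, with 2 and 4 reads beside 177, 270 and 357 for the 21 nt forms. The 22 nt form had 2 small RNA reads and shared nt 1324 of AP2 Sme2.5_00203.1_g00006.1, with 18 raw reads, with a 21 nt form. Other 20 nt forms, in pairs above 1, also named the main positions of AP2 and RAP2-7, so a read cannot be assigned to a form, and the part of length or abundance was not tested. At FBX6, nta-miR394 (20 nt) had 599 small RNA reads and its position had 4 raw degradome reads, while nta-miR394_L+1 had 138 and its position had 6. The 21 nt form aly-miR394a-5p_R+1 named the same position as nta-miR394.

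**Figure D3:**
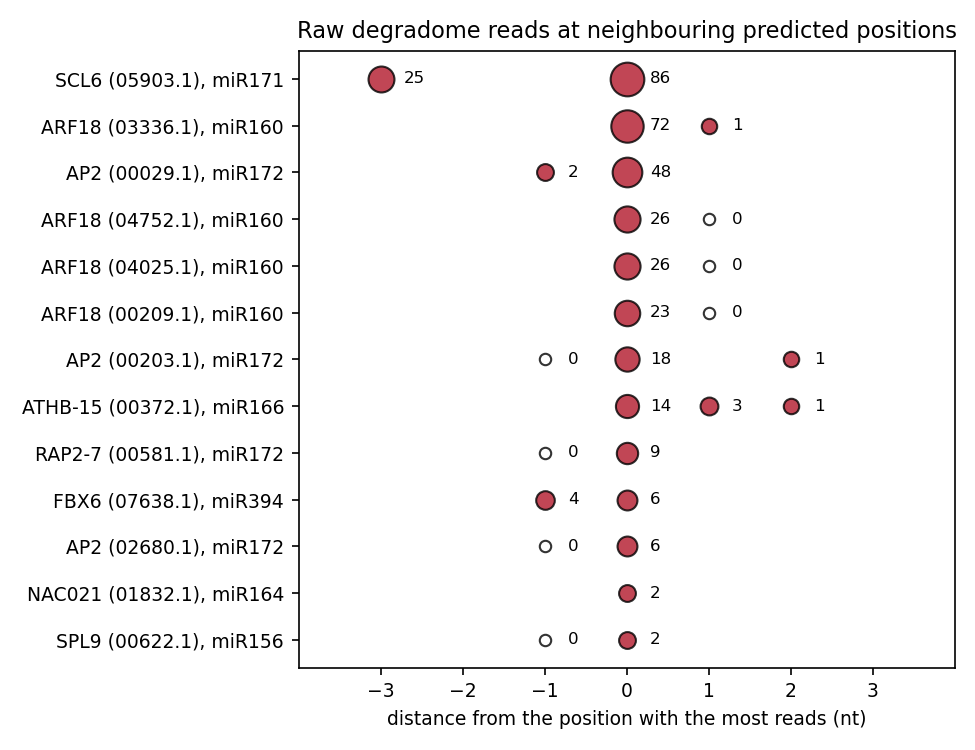
Raw degradome reads (printed beside each circle, circle size rising with reads) at positions that near-perfect or higher-scoring textbook pairs named on 13 transcripts, against the distance in nt from the position with the most reads (x axis). Open circles are positions named by a pair but not detected, and positions more than 3 nt away are not drawn. The position 1 nt upstream, named by 20 nt forms on AP2, RAP2-7 and SPL9, has 0 to 2 reads where the main position has 2 to 48. On FBX6 the upstream position, named by a 20 and a 21 nt form, has 4 reads beside 6.

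Of 27 named families with near-perfect pairs, 7 had textbook target pairs at this score. Another 13 families had textbook target pairs at higher scores only. Their lowest scores were 1.5 for miR397, whose 18 laccase pairs had 0 detected, 2 for miR162, miR319 and miR393, 2.5 for miR159, miR858 and miR482 (0 of 4 detected for the last), 3 for miR396 and miR168, 3.5 for miR169, miR6024 and miR6027, and 4 for miR167. For miR396 and the growth-regulating factors, 22 of 25 textbook pairs were detected although none scored under 3. A low score was therefore not shared by all families whose classical targets had degradome reads.

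Named families outside their textbook targets made 83 near-perfect pairs, of which 1 was detected, a share of 1.2% (0.0305% to 6.53%), against 2.23% of such pairs above 1. The single detected pair joined cme-miR530a_R-2 and the transcript Sme2.5_01135.1_g00012.1, which has no symbol, with 1 read at nt 102. A miR171 form, mdm-miR171i (7 reads), paired with score 0 with NSP2, named after a GRAS factor of nodulation signalling in legumes, and no read was listed. Likewise undetected were aly-miR2111a-5p with At3g27150, the Arabidopsis identifier of a known miR2111 target F-box gene, and the miR6022 form with the receptor-like transcripts GSO1 and PXL1. The word list holds no entry for miR2111. With the miR2111 pair counted as a textbook target pair, 30 of 46 such pairs and 1 of 82 other named pairs were detected. The NSP2 pair was also missed, by the miR171 words, and it stayed among the other named pairs with or without that change. These sequences are shown because their pairs are near-perfect and have a known or receptor-like partner.
mdm-miR171i: uGAGCCGAaccaauaucacuc
aly-miR2111a-5p: uAAUCUGCauccugagguuua
sly-MIR6022-p3_1ss20TC: uUAGUGAUggaagggagaacau

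Of the 4 most abundant small RNAs of the near-perfect pairs, 3 were named miR2911, which derives from 26S ribosomal RNA in plants, and 1 was peu-MIR2916-p3 with 3242 reads. The latter paired at score 0 with TY3B-G and was not detected. The 3 miR2911 sequences, with 13755 reads together, made 4 pairs, of which 0 were detected, and the partners with a symbol were ART3. ART3 and YLR154W-F, the partners of PC-5p-317003_2, carry symbols of open reading frames in the ribosomal DNA of budding yeast.
peu-MIR2911-p5: cGGUGGACugcucgagcugcucc
nta-miR2911_L+3: gCCGGCCGggggacggacuggga
peu-MIR2916-p3: aCCAUAAAcgaugccgaccaggga
nta-MIR2911-p3: uUCCCCGGgcgucgaacagcc
PC-5p-317003_2: aCGCGAGAaguccauugaaccu
PC-5p-317003_2, a 22 nt sequence with 41 reads, made 5 pairs, 2 of them with YLR154W-F and 1 with ART3, and 0 were detected. These counts are too small to be set against the 4.57% detected outside textbook targets.

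Several small RNAs of miR6173 and miR5368 name lay side by side on single transcripts, so 4 transcripts had 4 to 8 near-perfect pairs each. Transcript Sme2.5_01890.1_g00003.1 had 8 pairs with miR6173 forms, which covered nt 90 to 197, a stretch of 108 nt. Transcript Sme2.5_17375.1_g00002.1 had 7 pairs with miR5368 forms between nt 3051 and 3095. IMP4 (Sme2.5_00226.1_g00017.1), a symbol of a small nucleolar ribonucleoprotein of ribosomal RNA processing in yeast, had 6, and the retroelement transcript pol (Sme2.5_00300.1_g00011.1) had 4. None of these 25 pairs was detected. Above 1 the same names were detected in 7 of 278 pairs (miR5368) and 5 of 222 (miR6173). The 25 pairs are too few to be set against such shares. AP2 Sme2.5_00203.1_g00006.1 also had 4 near-perfect pairs, with miR172, and 2 of them were detected. Elsewhere 298 of the 342 transcripts had a single near-perfect pair.

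**Figure D4:**
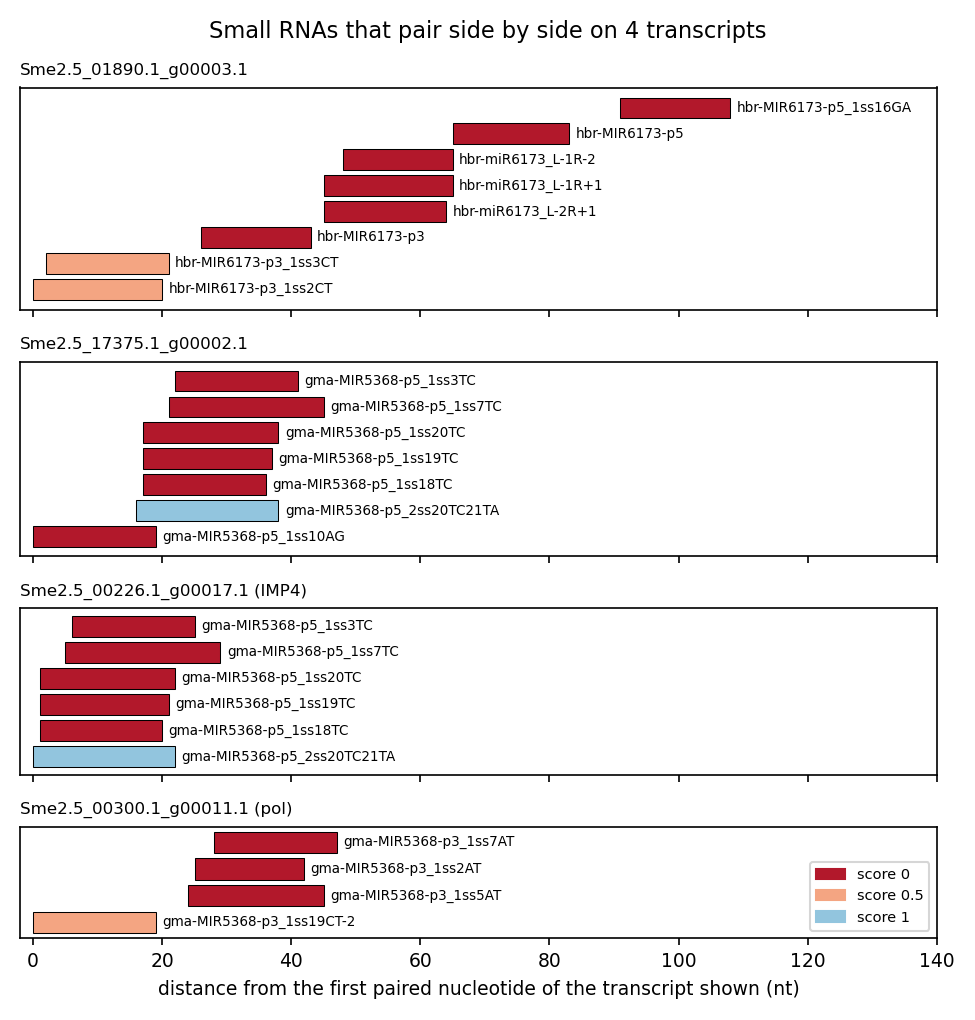
Paired stretch of each small RNA (bars, coloured by score) on the 4 transcripts with 4 or more near-perfect pairs of miR6173 or miR5368 name, against the distance in nt from the first paired nucleotide shown. On Sme2.5_01890.1_g00003.1 the miR6173 forms follow each other over 108 nt, and on the other 3 most miR5368 forms overlap, except gma-MIR5368-p3_1ss19CT-2 on pol.

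A single 24 nt sequence, PC-3p-519926_2, made 205 of the 417 near-perfect pairs, 49.2% (44.3% to 54.1%), although the small RNA library held 3 reads of it. PC names mark sequences that were not given the name of a known miRNA. Its pairs scored 0 in 2 cases, 0.5 in 146 and 1 in 57, and 8 were detected, a share of 3.9% (1.7% to 7.54%), against 4.69% of its 384 pairs above 1. Each of the 8 had 1 raw read, normalized to between 0.1 and 0.167, which was again read as a match to more than 1 place. Their partners included THRRS, a threonyl-tRNA synthetase by annotation, and At3g50280. Its partners with a symbol came to 85 pairs with 78 symbols, and retroelement names made 12 of the 85, with pol and GIP at 4 each. PC-5p-737049_1, a 24 nt sequence with 5 reads, ends in the first 13 bases of PC-3p-519926_2, shown in capitals.
PC-3p-519926_2: AGUGGGGUCUGGGgaggguagagu
PC-5p-737049_1: guaaucccauaAGUGGGGUCUGGG
The 2 sequences shared 9 transcripts, and on all 9 their paired stretches started 11 nt apart. Together they made 222 pairs on 213 transcripts. Among the 17 pairs of PC-5p-737049_1, the 3 detected, on DLD, ASG4 and PAZX, had 1 raw read each, normalized to 0.111. PC-3p-299745_3 held a 16 nt stretch of PC-3p-519926_2 on the opposite strand, in capitals below, and its 1 pair was undetected.
PC-3p-299745_3: cguacaucCUACCCUCCCCAGACC
PC-3p-519926_2: aguggGGUCUGGGGAGGGUAGagu

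Other PC sequences made 84 near-perfect pairs, of which 8 were detected, 9.52% (4.2% to 17.9%), against 2.69% (90 of 3348) above 1. Of these 8, 3 belonged to PC-5p-737049_1 and 3 to PC-5p-24737_36, a 22 nt sequence with 616 reads that scored 0 on all of its 3 transcripts. The latter were Sme2.5_00609.1_g00017.1 (nt 235), Sme2.5_02162.1_g00010.1 (nt 667) and AtMg00860 (Sme2.5_03005.1_g00001.1, nt 1831), with 1 raw read each, normalized to 0.25. All 3 also paired with osa-MIR2118e-p3_1ss13TA, and its paired stretch started 119 nt further along each transcript. The remaining 2 detected pairs were PC-5p-3156076_1 on OST3B (Sme2.5_00721.1_g00012.1, nt 1807) and PC-3p-797912_1 on the retroelement transcript pol (Sme2.5_06963.1_g00003.1, nt 102). Each had 1 raw read, and its normalized value was also 1. Over the 17 positions outside textbook targets, 14 had a normalized value under the raw one. A read shared by several of these positions would be listed at each of them, which the interval for the 84 pairs does not cover.
PC-5p-24737_36: gUGGACCAgcguggauuggggg
osa-MIR2118e-p3_1ss13TA: gAAAAGAGagucaaagag
PC-5p-3156076_1: aUCUAUGUugcucgaacucuucaa
PC-3p-797912_1: aGAAUCCGacacggguguggcauu

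PC sequences also repeated one another. A chain of 18 small RNAs, 17 of PC name and nta-MIR5303c-p5_1ss9GC, was linked by shared words of 12 or more nt on either strand, and it held 51 small RNA reads, 26 pairs and 21 transcripts, with 2 pairs detected. PC-5p-319895_2 and PC-5p-497421_2 in this chain were complementary over all 21 nt.
PC-5p-319895_2: UUGGAGAGUCCGAGCAACUUA
PC-5p-497421_2: UAAGUUGCUCGGACUCUCCAA
A miR5303 form shared 17 nt with PC-3p-1336284_1 on the opposite strand, in capitals.
PC-3p-1336284_1: aacAUUUUUGGAGAAUCCGAgcaa
nta-MIR5303c-p5_1ss9GC: gUCGGAUUCUCCAAAAAUagugca
The partners of the chain included TY3B-I, GIP and pol, which are names of retroelement proteins, NFYA5, a nuclear factor Y subunit, and PUB5. The 2 detected pairs of the chain were those on OST3B and pol given above.

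Resistance gene transcripts were partners of a few PC sequences at very low scores without reads. PC-5p-444112_2, a 21 nt sequence with 8 reads, made 9 pairs, 8 of them with score 0. Its partners with a symbol were R1B-16, R1B-17, RPPL1, RGA3 and At1g58602, names of nucleotide-binding leucine-rich repeat proteins that recognise pathogens. PC-5p-791564_1 paired at 0.5 with R1A, R1A-4 and R1B-12, which carry names of late blight resistance proteins of potato relatives. PC-3p-3437_200 (206 reads) and the miR6020 form nta-miR6020a-5p_L+1R-1_1ss11TC (10 reads) differed by 1 base at the 3′ end and both paired at 0.5 with N (Sme2.5_00269.1_g00013.1), named after the tobacco mosaic virus resistance gene of tobacco and annotated as a kinase. None of these 14 pairs was detected, which is too few pairs to be set against the 2.44% detected above 1 outside textbook targets. The sequences are shown for these low scores, with seeds in capitals.
PC-5p-444112_2: uUGGGGCAaguaauuguagcu
PC-5p-791564_1: gAGAAGUCccacaucagc
PC-3p-3437_200: uAAAUGUUuuccgaguaucuuu
nta-miR6020a-5p_L+1R-1_1ss11TC: uAAAUGUUuuccgaguaucuu

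Counted by small RNA, 58 of 102 had 1 near-perfect pair and 25 had 2, and 26 had a detected pair. After PC-3p-519926_2 came bdi-MIR398a-p5_1ss4TA, a 17 nt sequence with 1 read, with 22 pairs and 0 detected, of which 17 had a symbol. PC-5p-737049_1 followed with 17 pairs and 3 detected, and PC-5p-444112_2 with 9 and 0. Next were tcc-miR172d_L-1 with 6 pairs (1 detected), nta-miR172a_L-1 with 5 (1) and PC-5p-317003_2 with 5 (0). Then aly-miR156a-5p_1ss14TA (2 detected), sly-miR160a (4), osa-MIR2118e-p3_1ss13TA (0) and sof-MIR159c-p5_1ss11GA (0) had 4 each. PC-3p-519926_2 had the most detected pairs, 8, and sly-miR160a was the one among these small RNAs with every pair detected.

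Much of the 24 nt share of near-perfect pairs, but not all of it, came from the same single sequence. Small RNAs of 24 nt made 256 of 417 near-perfect pairs, 61.4% (56.5% to 66.1%), against 15.6% of pairs above 1. Without PC-3p-519926_2 they made 51 of 212, 24.1% (18.5% to 30.4%), against 12.8% above 1 without it. Counted once per small RNA, 24 nt sequences made 27.5% (19.1% to 37.2%) of the near-perfect set and 27.7% of the other. Detection differed by length: 22 of 49 near-perfect pairs of 21 nt were detected, 6 of 24 of 20 nt, 13 of 256 of 24 nt, and 0 of 30 of 17 nt. Above 1 the shares were 5.62% at 21 nt, 5.1% at 20 nt, 3.81% at 24 nt and 1.85% at 17 nt. The near-perfect share at 24 nt, 5.08%, was thus close to that above 1, and 30 pairs of 17 nt are too few to be set against 1.85%. All 22 detected pairs of 21 nt were textbook target pairs.

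**Figure D5:**
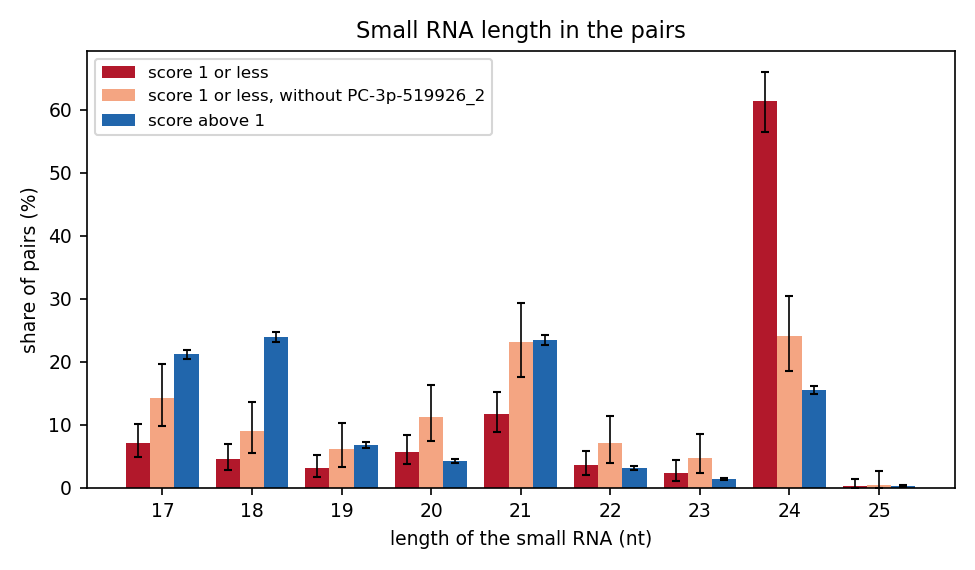
Share of pairs (y axis, percent) by length of the small RNA (x axis, nt) for scores of 1 or less, the same without PC-3p-519926_2, and scores above 1, with exact 95% intervals. The 24 nt class falls from 61.4% to 24.1% of near-perfect pairs when that 1 sequence is left out.

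Among transcript symbols the conserved targets and the retroelement names led, and they differed in detection. Symbols were given for 49.4% (44% to 54.8%) of the 342 near-perfect transcripts and for 51.6% of transcripts above 1. There were 125 symbols, 98 of them with 1 pair. The retroelement symbol pol led with 15 pairs (1 detected), followed by AP2 with 14 (6 detected), TY3B-I with 12 (0) and ARF18 with 9 (9). TY3B-G had 7 (0), GIP 6 (0), IMP4 6 (0) and SPL6 4 (4). ART3, AtMg00860, FBX6, RAP2-7, SCL6, SPL12, SPL9, Tf2-1 and YLR154W-F had 3 each, and all 3 were detected for FBX6 and SCL6. Among symbols with 3 or more pairs, ARF18, SPL6, FBX6 and SCL6, all classical miRNA targets, had every pair detected. Among symbols with a single pair, THRRS, DLD, ASG4 and At3g50280 also had it detected, with 1 raw read each.

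Retroelement symbols or gene ontology terms, a list added after the symbols had been seen, took 53 near-perfect pairs, 12.7% (9.67% to 16.3%), with 1 detected, against 30.5% of pairs above 1 with 9 of 3646 detected. The list of retroelement words in the annotations took 0 near-perfect pairs, which allows a share of up to 0.719%, and 1 pair above 1. Disease resistance names took 6 near-perfect pairs (0 detected) and 71 above 1 (9 detected), and this list missed RGA3, At1g58602 and N. Protein kinase words took 4 (0) and 178 (12), and transcription factor words 20 (8) and 174 (92). The transcription factor list held AP2, RAP2-7, ATHB-15 and NFYA5 but missed ARF18, SCL6 and the SPL transcripts, which have a symbol and no annotation. Translation words took 8 pairs (1 detected, on THRRS) and 83 above 1 (14), and they included the transcription initiation factors TBP, HAF2 and Taf5. Organelle words took 2 (0) and 41 (4), ubiquitin and F-box words 1 (0) and 55 (6), transport words 2 (0) and 98 (1), and small RNA pathway words 0 and 18 (9). The ubiquitin and F-box list held UBP6 but missed At3g27150 and FBX6, and all 3 near-perfect pairs of FBX6 were detected. The lists read deposited symbols and annotations only, and transcripts without either can be missed.

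The small RNAs of the near-perfect pairs also made 5415 pairs with scores above 1, of which 3.12% (2.67% to 3.62%) were detected, against 11.3% of their near-perfect pairs. The near-perfect set held 22875 small RNA reads, with a median of 4.5 and a highest value of 6495 reads per sequence. U was the first base in 36 of 102 near-perfect small RNAs, 35.3% (26.1% to 45.4%), and in 43.6% (39.1% to 48.1%) of those above 1. PC names made 40 of 102, 39.2% (29.7% to 49.4%), against 44.8% above 1, although they made 69.3% of the near-perfect pairs against 31.2%. In first base and share of PC names the intervals of the 2 sets of small RNAs overlap.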

How the data were processed

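Pistils of an eggplant line were sampled for a small RNA library and a degradome library, 1 of each, pooled over both flower morphs. Per the labels' protocols, RNA came from a Norgen kit, small RNAs were prepared with a TruSeq kit from Illumina, and degradome tags by the German et al. protocol, which captures uncapped 5′ ends. The programs and genome build behind the tables are not given in the sources used here. Per the file headers, the small RNA table holds a read count per sequence, and its 686 listed sequences sum to 135737 reads, a list and not the whole library. In the degradome table the authors deposited an alignment score, a raw read count, a normalized read value (a signal), a category and a p-value per pair, all used as deposited. The p-value is the authors' own and was treated as unadjusted. No value was normalized again.

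Pairs were split at a score of 1 after small RNAs with a distinct 3 nt word share of 0.5 or less had been left out. Shares carry exact Clopper-Pearson 95% intervals from SciPy 1.17.1 (Python 3.11.15, pandas 2.3.3, NumPy 2.4.6), and a count of 0 was taken to allow up to 3 counts. The intervals are over pairs, transcripts or small RNAs, which are not independent of one another. With 1 library of each kind no test between samples was made. The intervals were tested on simulated counts, and the complexity measure and the reading of family names on made-up strings. Sequences are those of the deposited degradome table, shared stretches are words of at least 12 nt on either strand, and positions count along the transcript.

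Textbook target words were listed for 28 miRNA families and matched to symbols and annotations. The members, the word list and the gene lists were chosen with earlier results of these data known. The text names the 25 detected positions with the most raw reads, the 10 small RNAs and 10 symbols with the most near-perfect pairs, all textbook target pairs and the leading pairs just above the limit. Other small RNAs and transcripts (miR2911, miR2916, miR2111, miR6022, miR6020, mdm-miR171i, PC-3p-3437_200, PC-5p-24737_36, PC-5p-791564_1, the linked PC sequences and the transcripts with the most pairs) were chosen after their values were seen. Alternatives changed the score limit, the complexity limit, the small RNAs kept, the unit of counting and the definition of a detected pair.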

Additional observations from a re-analysis of the deposited data

Results flagged for a closer look

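The small RNAs left out for low complexity were not part of the comparisons above, and they too had degradome reads. They made 415 pairs with scores of 1 or less from 8 small RNAs, and 50 were detected, a share of 12% (9.08% to 15.6%). Of these 50 pairs 26 had 1 raw read, the highest value was 24, and 0 were in category 0 or 1, which allows a share of up to 0.723% of the 415 pairs.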

How the results depend on the processing

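The share of near-perfect pairs detected, 11.3%, was 24.2% for known family names only, 36.4% for 20 to 22 nt, 4.89% for 23 and 24 nt, 18.4% without PC-3p-519926_2 and 25.5% with each small RNA counted 1 time. It was 7.89% at scores of 0.5 or less, 6% with at least 2 raw reads, 3.84% with category 0 or 1, 3.84% with an authors' p of 0.05 or less, and 6.24% with only reads whose normalized and raw values were equal. In alternatives chosen after seeing the data it was 66.7% for textbook target pairs only and 4.57% without them. The share of detected pairs in category 0 or 1, 34%, was 16.7% at 0.5 or less and 16.5% with no small RNA left out. The median of 2 raw reads was 1 at 0.5 or less, 1 with each position counted 1 time and 4 with normalized equal to raw. The 24 nt share of 61.4% was 71.1% at 0.5 or less, 31.7% with no small RNA left out, 24.1% without PC-3p-519926_2 and 27.5% per small RNA. The PC share of 69.3% was 78.9%, 34.7%, 39.6% and 39.2% in the same order. The share of transcripts with a symbol, 49.4%, was 59.7% without PC-3p-519926_2. These alternatives change which pairs are counted by construction, and other causes were not tested. Every other alternative moved its value by less than the counting interval. No paired analysis was possible because there is 1 library of each kind. Adding the miR2111 pair, also chosen after seeing the data, gave 65.2% for textbook target pairs.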
